A study of Homo sapiens with 6 samples.

Results

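Transcripts of 10 genes that hypoxia-inducible factors (HIFs) activate were followed in HepG2, a human hepatoma cell line, on 6 one-colour Agilent expression arrays. The genes were CA9, VEGFA, ADM, NDRG1, BNIP3, EGLN3, ANKRD37, KDM3A, DDIT4 and P4HA1. They were taken by gene name from the probes that are no array controls, and 8 of the 10 were found under their current symbols, with 9 probes. The other 2 stood under older names, VEGFA as VEGF and KDM3A as JMJD1A, and were added through their RefSeq accessions. This gave 16 probes for 10 of the 16986 genes named on the array. Control cells were on 1 array, and the other 5 carried RNA of cells given a preparation of Scutellaria baicalensis at 100 µg/ml for 1, 3, 6, 12 or 24 h. The labels give neither a time nor a vehicle for the control. Each group held 1 array of 1 cell line, so differences at one time carry no p-value and no spread between cultures. A lower bulk signal cannot tell less RNA per cell from fewer expressing cells.

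HIFs are transcription factors made of an oxygen-regulated alpha subunit, such as HIF1A or EPAS1, and the constant partner ARNT. When oxygen is ample, prolyl hydroxylases of the EGLN family mark the alpha subunit, the VHL ubiquitin ligase binds the mark, and the protein is degraded. When the mark is not made, the dimer binds short hypoxia response elements and raises genes of blood vessel growth, glycolysis, pH control and mitochondrial turnover. In hepatoma lines these genes are commonly read as a measure of HIF activity, although several of them also answer to other stress pathways, as DDIT4 and VEGFA do to ATF4.

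Values are scaled log2 signals, that is, log2 of the scanner's background-corrected signal minus log2 of the same array's 75th percentile. Differences are treated minus control, and 1 unit is 2-fold. The error after ± is how far probes of one gene scatter in their differences, as an SD per probe. That SD was 0.35, 0.44, 0.77, 0.67 and 0.68 for the 5 times in order, and it leaves out variation between cultures and arrays. Signal was dimmest at 6 h and 12 h: the 75th percentile ranged from 153 units at 6 h to 1900 at 3 h, and 49.5% of probes were well above background at 6 h against 64.4% to 73.2% on the other arrays. The median difference of all measured genes was 0.35 at 6 h and 0.21 at 12 h and within 0.06 of 0 at the other times. All 8 hepatocyte markers were well above background on every array, ALB being saturated on all 6. Of 9 markers of blood, endothelial and stromal cells, CD79A, VWF and ACTA2 were well above background on all 6 arrays, CD3E and PDGFRB on 5, PECAM1 on 4 and PTPRC on 1, and CDH5 and COL1A1 on none. The part of brightness in the results below was not tested beyond the alternatives given.

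The main probes of the 10 genes, the brightest of each, were well above background and unsaturated on all 6 arrays. At 1 h ANKRD37, DDIT4 and ADM were at least 2-fold lower than in control cells, where 0.672% of 12802 measured genes were. At 3 h ANKRD37, DDIT4 and EGLN3 were, against 3.10% of all genes. At 6 h CA9, VEGFA and NDRG1 were, against 10% of all genes, and at 12 h CA9 and ANKRD37, against 8.08%. At 24 h only ANKRD37 among the 10 main probes remained at least 2-fold lower, against 9.55% of all genes. No main probe was at least 2-fold higher at 1, 3 or 6 h, when 2.24%, 3.04% and 23.2% of all genes were. DDIT4 was at 12 h and 24 h, against 12.6% and 7.03%. Differences below 0 were found for 8, 8, 9, 8 and 7 of the 10 genes at the 5 times in order, where 55.5%, 54.3%, 35.1%, 39% and 49.3% of all genes had one. The median of the 10 genes was -0.13, -0.49, -0.65, -0.49 and -0.21, and relative to the median of all genes it lay at -0.07, -0.45, -1.003, -0.70 and -0.22. All 5 differences share 1 control array, so they are not independent readings of it.

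**Figure D1:**
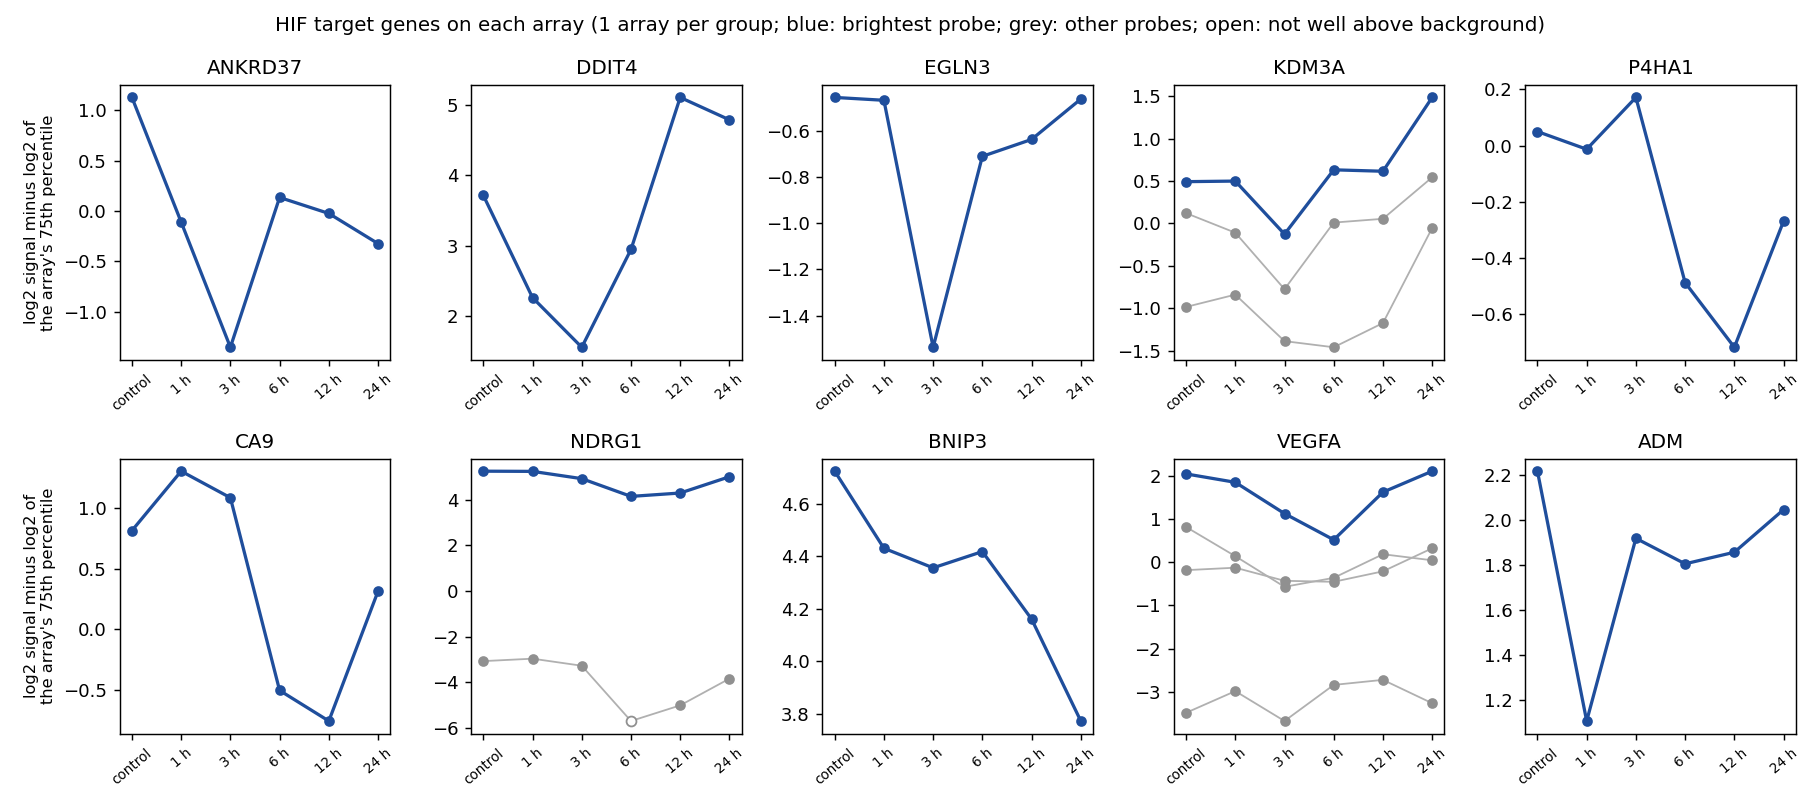
Scaled log2 signal (y axis) of every probe of the 10 genes in control cells and at 1 to 24 h of exposure (x axis), with 1 point per array, blue for the brightest probe, grey for others and an open point where a probe was not well above background. ANKRD37, DDIT4 and EGLN3 have their lowest point at 3 h, and CA9 and P4HA1 at 12 h.

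ANKRD37 encodes an ankyrin repeat protein and is a direct HIF target. Its scaled signal was 1.13 in control cells, then -0.11, -1.35, 0.13, -0.02 and -0.32 at 1, 3, 6, 12 and 24 h. Every treated array lay below the control, and the 3 h array lay lowest. The differences, in the same order, were -1.24 ± 0.35, -2.48 ± 0.44, -0.99 ± 0.77, -1.15 ± 0.67 and -1.45 ± 0.68. At 3 h the control signal was 5.59-fold that of the treated array, and 0.0786% of measured genes had a lower difference. The 3 h array was the brightest of the 6. Scaled to spike-in spots the difference at 24 h was -0.20.

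DDIT4 encodes an inhibitor of the growth-promoting kinase complex mTORC1 and is raised by hypoxia, glucocorticoids and amino acid shortage. Its scaled signal was 3.72 in control cells, then 2.26, 1.56, 2.95, 5.11 and 4.79 at 1, 3, 6, 12 and 24 h. The first 3 treated arrays lay below the control and the last 2 above it. The differences were -1.45 ± 0.35, -2.16 ± 0.44, -0.77 ± 0.77, 1.39 ± 0.67 and 1.07 ± 0.68. With another background correction (normexp) the 6 h difference was -2.11, below the -2.03 at 3 h. From 3 h to 12 h the scaled signal was 11.7-fold apart, the widest range over arrays among the 10 genes at 3.55 log2 units. At 12 h 95.9% of measured genes had a lower difference, and at 3 h 0.157% did.

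**Figure D2:**
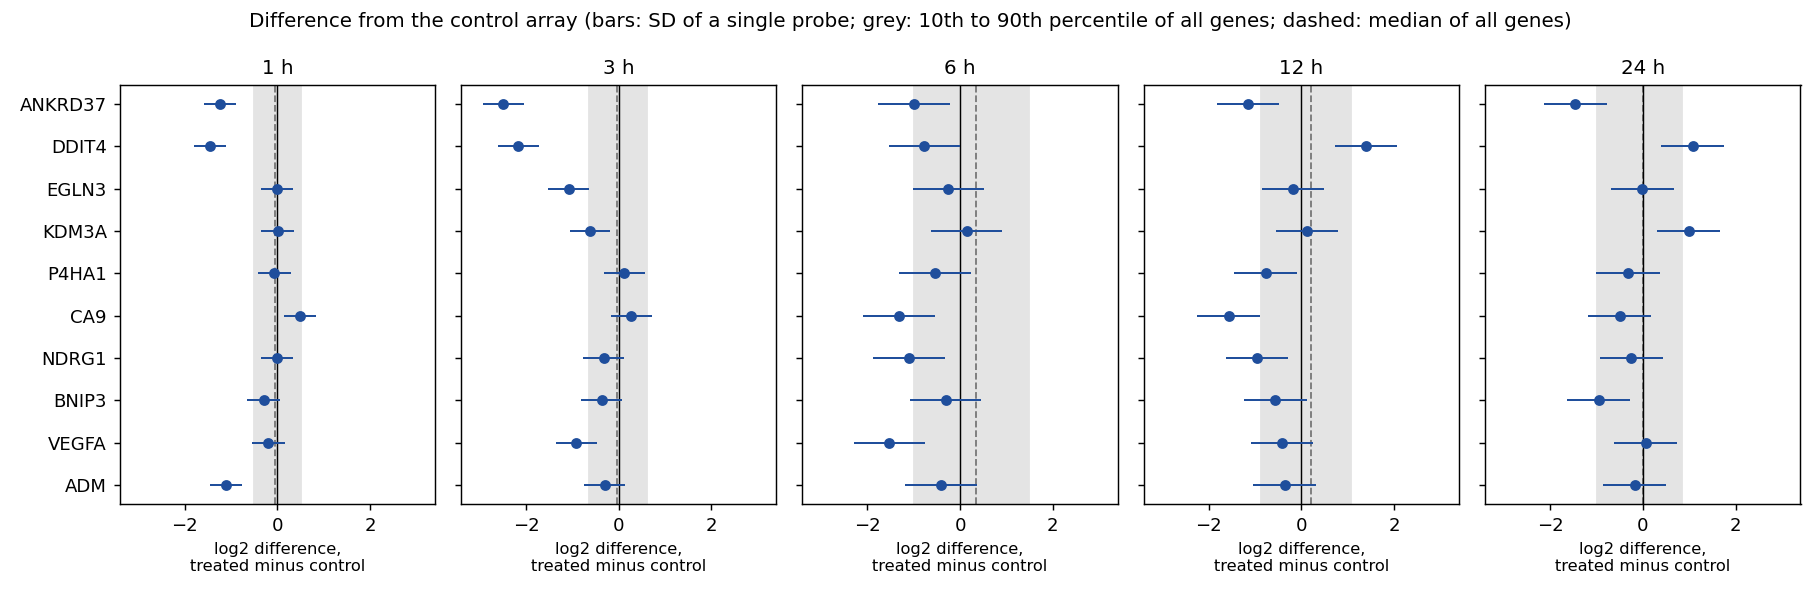
Log2 difference from the control array (x axis) of each gene's main probe (y axis) at each time, with bars of 1 SD of a single probe, the central 4 in 5 of all measured genes in grey and their median dashed. ANKRD37 and DDIT4 lie furthest left at 3 h, at -2.48 and -2.16, and DDIT4 lies right of 0 at 12 h and 24 h.

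Stretches around the transcription start were examined because the hypoxia response element has a short core, written here as ACGTG or GCGTG. RefSeq promoter sequences (GRCh38.p14, 250 bases before to 50 after a start) were read for 8 of the 10 genes. These were matched by symbol, and KDM3A had a pair of starts. Promoters of VEGFA and NDRG1 were not read, so the gene counts here leave them out. At least 1 core, on either strand, was found in 7 of the 8 genes, and 48.4% of all 35116 promoters held one. The core ACGTG was found in 5 of the 8, and in 21.4% of all promoters. The 4 sequences below belong to the genes with the largest differences at 3 h and 12 h and to the gene with the most matches. They are written 5′ to 3′ along the gene's strand, and capitals mark the cores and their reverse complements.
ANKRD37, chr4:185396591-185396890, plus strand: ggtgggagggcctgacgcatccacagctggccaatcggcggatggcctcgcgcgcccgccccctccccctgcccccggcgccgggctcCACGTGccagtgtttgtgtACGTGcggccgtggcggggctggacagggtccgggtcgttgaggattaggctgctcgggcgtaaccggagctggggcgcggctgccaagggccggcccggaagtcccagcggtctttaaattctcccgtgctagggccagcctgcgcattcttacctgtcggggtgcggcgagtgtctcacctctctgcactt
DDIT4, chr10:72273674-72273973, plus strand: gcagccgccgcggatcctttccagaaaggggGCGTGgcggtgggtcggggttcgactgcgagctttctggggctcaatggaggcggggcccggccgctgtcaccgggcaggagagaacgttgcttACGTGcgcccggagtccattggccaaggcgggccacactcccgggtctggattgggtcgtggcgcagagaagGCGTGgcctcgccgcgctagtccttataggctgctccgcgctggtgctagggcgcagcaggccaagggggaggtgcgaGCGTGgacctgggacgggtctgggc
CA9, chr9:35673678-35673977, plus strand: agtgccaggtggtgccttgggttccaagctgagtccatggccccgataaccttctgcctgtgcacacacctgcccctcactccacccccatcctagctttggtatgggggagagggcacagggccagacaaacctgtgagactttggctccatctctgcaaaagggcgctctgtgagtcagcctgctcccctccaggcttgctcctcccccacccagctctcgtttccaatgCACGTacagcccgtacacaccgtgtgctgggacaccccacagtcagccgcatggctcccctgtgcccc
BNIP3, chr10:131981874-131982173, minus strand: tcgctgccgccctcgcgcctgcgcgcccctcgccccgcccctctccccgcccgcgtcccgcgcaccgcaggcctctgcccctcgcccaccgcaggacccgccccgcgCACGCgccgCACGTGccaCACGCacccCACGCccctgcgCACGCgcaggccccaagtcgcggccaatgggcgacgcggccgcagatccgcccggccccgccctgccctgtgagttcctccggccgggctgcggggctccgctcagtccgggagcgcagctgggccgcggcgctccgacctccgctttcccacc

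ANKRD37 held 3 matches, 2 of which are the same palindrome CACGTG read on both strands, with first bases 162 and 161 before the start, and the third lay 143 before it. DDIT4 held 4 matches that do not overlap, of which the ACGTG lay 125 bases before the start. BNIP3 held 6 matches within 143 to 104 bases before the start, again with 1 palindrome counted on both strands, and 0.923% of all promoters held 6 or more. CA9 held 1 match, on the other strand, 18 bases before the start. ADM, P4HA1 and each start of KDM3A also had 1 match, that of KDM3A being the same site seen in both of its overlapping windows. No core was found in the EGLN3 window. These matches are letters in a window, and the arrays give no binding data for them.

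**Figure D3:**
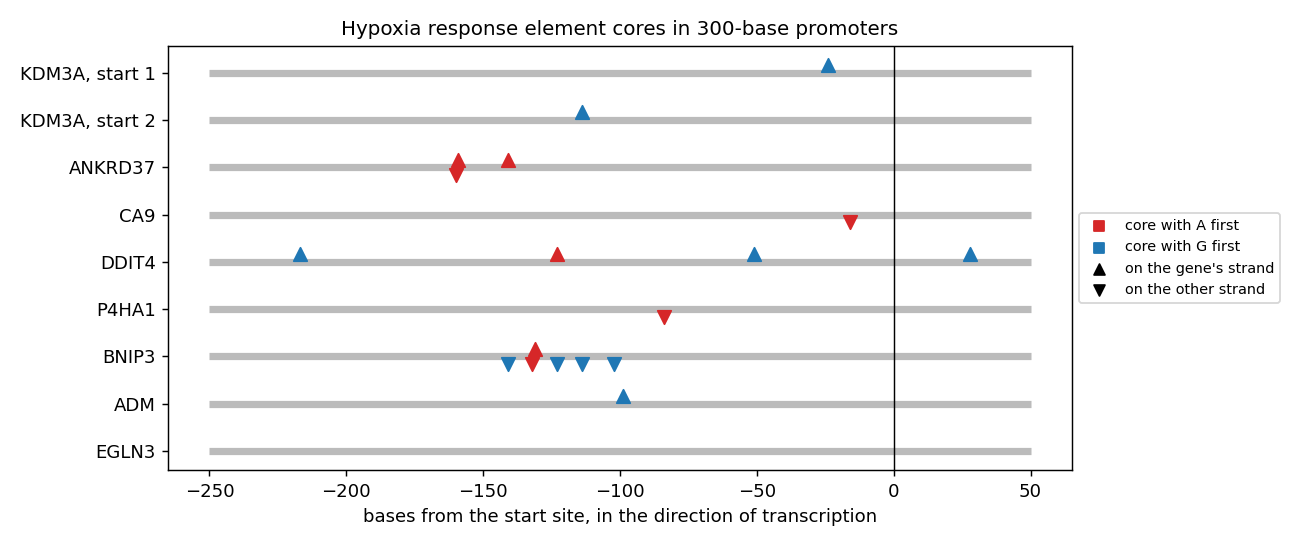
Positions of the hypoxia response element cores (triangles; red for ACGTG, blue for GCGTG; up for the gene's strand, down for the other) along each 300-base promoter, as bases from the start site (x axis) for 8 genes (y axis). ANKRD37, DDIT4 and BNIP3 hold 3, 4 and 6 matches, and EGLN3 none.

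EGLN3 is the HIF prolyl hydroxylase most readily induced by HIF itself. Its scaled signal was -0.46 in control cells, then -0.47, -1.54, -0.71, -0.64 and -0.46 at 1, 3, 6, 12 and 24 h. Only the 3 h array stood apart, at -1.08 ± 0.44, and the differences at the other times were between -0.25 and -0.01, within the error. KDM3A encodes a demethylase of histone H3 lysine residues. Its brightest probe had a scaled signal of 0.49 in control cells, then 0.50, -0.13, 0.63, 0.61 and 1.48 at 1, 3, 6, 12 and 24 h. The 3 h array was lowest and the 24 h array highest. The difference was -0.62 ± 0.44 at 3 h and 0.99 ± 0.68 at 24 h. Its 3 probes ran the same way at these times, between -0.90 and -0.40 at 3 h and between 0.42 and 0.99 at 24 h.

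CA9 encodes a cell-surface carbonic anhydrase that acidifies the space around the cell. Its scaled signal was 0.81 in control cells, then 1.30, 1.08, -0.50, -0.75 and 0.31 at 1, 3, 6, 12 and 24 h. It lay above the control at 1 h and 3 h, and below it on the later 3 arrays. The differences were 0.49 ± 0.35, 0.27 ± 0.44, -1.32 ± 0.77, -1.57 ± 0.67 and -0.50 ± 0.68. Its lowest arrays were the 2 dimmest, with processed signals of 108 and 249 units against 1350 on the control array. P4HA1, a subunit of the collagen prolyl hydroxylase, followed a like order with a smaller range. Its scaled signal was 0.05 in control cells, then -0.01, 0.17, -0.49, -0.72 and -0.27 at 1, 3, 6, 12 and 24 h, and its lowest difference was -0.77 ± 0.67 at 12 h.

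NDRG1, a stress-responsive cytoplasmic protein, was also lowest on the dim arrays. The scaled signal of its brightest probe was 5.24 in control cells, then 5.23, 4.91, 4.14, 4.28 and 5.00 at 1, 3, 6, 12 and 24 h. The difference was -1.10 ± 0.77 at 6 h and -0.96 ± 0.67 at 12 h, and it was between -0.33 and -0.01 at the other times. Its other, much dimmer probe was not well above background at 6 h, where the control was at least 1.31-fold higher, and it stood at -1.94 at 12 h. BNIP3, a mitochondrial protein that marks the organelle for autophagy, had a scaled signal of 4.72 in control cells, then 4.43, 4.36, 4.42, 4.16 and 3.77 at 1, 3, 6, 12 and 24 h. All treated arrays lay below the control, and the 24 h array lay lowest, at -0.95 ± 0.68. The order depended on the processing: the 6 h difference of -0.31 was -0.99 with quantile normalization, -1.11 with cyclic loess and -1.82 with normexp background, each below that setting's 24 h value, and the 24 h difference was 0.30 when scaled to spike-in spots.

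The secreted factors differed from each other in time. ADM encodes adrenomedullin, a vasodilator peptide, and its probe was printed in 10 spots per array. Its scaled signal was 2.22 in control cells, then 1.11, 1.92, 1.81, 1.86 and 2.05 at 1, 3, 6, 12 and 24 h. In the values reported the 1 h array alone stood apart, at -1.11 ± 0.35, or -0.88 when scaled to spike-in spots. The SD of log2 signal between its 10 spots was 0.125 at 1 h and 0.053 on the control array, and the highest of the 10 spots at 1 h (2600 units) was below the lowest control spot (3340 units) before scaling. The later differences of ADM were between -0.41 and -0.17 in the values reported. The one at 6 h depended on the processing. It was -0.71 with quantile normalization and -1.45 with normexp background, below that setting's 1 h value of -1.06.

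VEGFA, the main growth factor of blood vessels, had 4 probes, which disagreed. The brightest, A_24_P12401, had a scaled signal of 2.04 in control cells, then 1.85, 1.12, 0.52, 1.62 and 2.10 at 1, 3, 6, 12 and 24 h, and was lowest at 6 h with a difference of -1.52 ± 0.77. A_23_P70398 stood at -1.38 (3 h) and -1.18 (6 h). A_23_P81805, printed in 10 spots, was at -0.25 and -0.27 at these times and at 0.51 at 24 h. A_24_P179400, the dimmest, stood at -0.19 (3 h) and 0.64 (6 h). At 6 h the probes spanned 2.17 log2 units, against an error of 0.77 for a single probe. The mean over the 4 probes at 6 h was -0.58.

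A slope of scaled log2 signal on log2(hours + 1) was fitted over the 6 arrays with limma, placing the control at 0 h by assumption. Of 13275 genes, 0 passed an adjusted p of 0.05 by limma (0% rising, 0% falling). At an unadjusted p of 0.05, 491 had rising lines (3.7%) and 809 falling lines (6.09%), none of the 10 genes among them. Scaled to the spike-in spots, 2453 had rising and 54 falling lines at that level. None of the 10 genes passed: their limma adjusted p was between 0.55 (BNIP3) and 0.996 (EGLN3). Lines sloped downward for 6 of 10, as for 40.9% of all genes. DDIT4 had the steepest line, 0.46 ± 0.25 (SE) per unit of log2(hours + 1), and CA9 the steepest downward one, -0.31 ± 0.16. A straight line does not describe a gene that is lowest at 3 h and near control at 24 h. Of the 10 genes, 5 (ADM, NDRG1, BNIP3, EGLN3 and ANKRD37) lay below the control at all 5 times, as 12.4% of 10155 genes measured at all times did. Scaled to spike-in spots, ANKRD37 alone of the 10 did, against 0.561% of those genes. In the other 8 alternatives 3 to 5 did, ADM, BNIP3 and ANKRD37 in each, against 10.8% to 14.5% of all genes compared.

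The direction depended on what the arrays were scaled to. Against the spike-in spots, RNAs added in known amounts, all genes had a median difference of 1.05 at 3 h and 1.27 at 24 h, so a value near 0 on the main scale becomes positive there. On that scale ANKRD37 was at -1.39 and DDIT4 at -1.07 at 3 h, and EGLN3 at 0.011. On it 18 of the 50 differences of the 10 genes changed sign, among them VEGFA at 3 h (0.17) and CA9 at 24 h (0.76). Relative to all genes the median of the 10 did not move with this choice, since every gene shifts alike. Across 10 settings of scaling, background and probe choice, ANKRD37 and DDIT4 were at least 2-fold lower at 1 h and 3 h in all 10, as were CA9 at 6 h and 12 h and NDRG1 at 6 h. DDIT4 was at least 2-fold higher in 10 of 10 at 24 h and in 8 of 10 at 12 h, where its lowest value was 0.93. The mean over probes and no filter returned the reported values for all of these, since each rests on a single measured probe. Those settings are therefore no separate readings here.

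**Figure D4:**
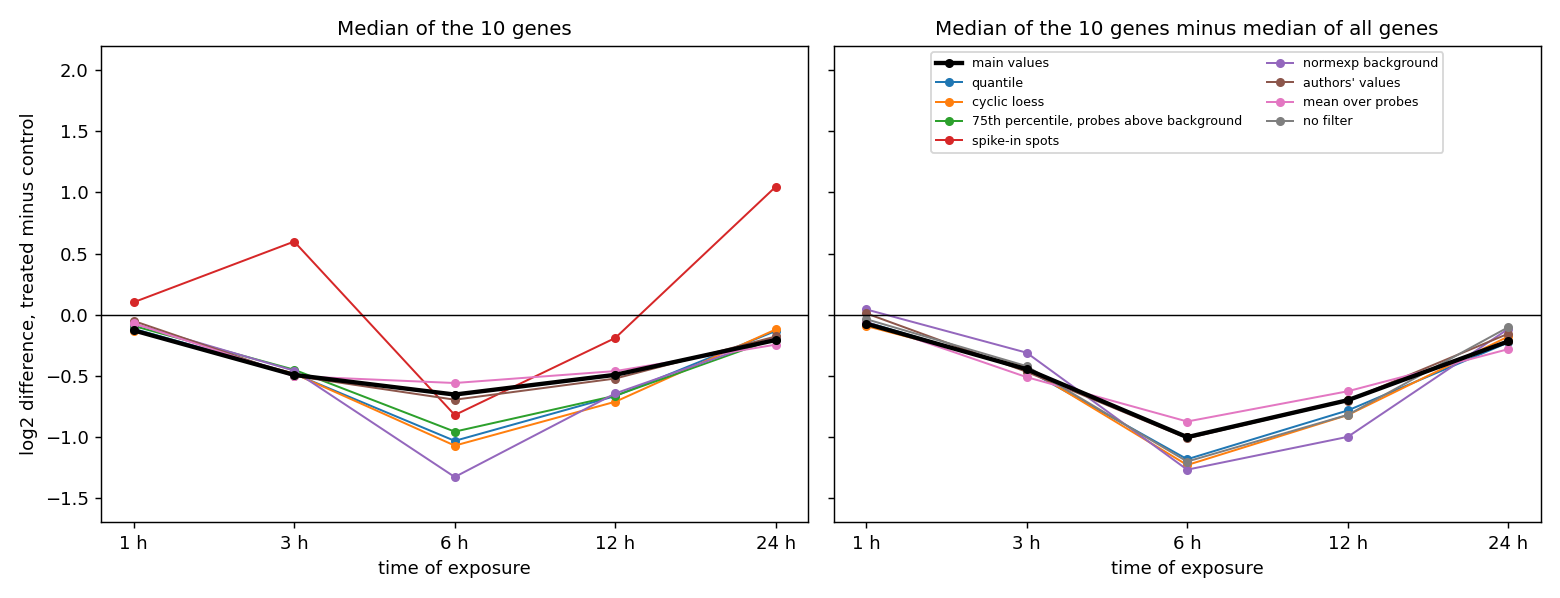
Median log2 difference from control of the 10 genes (left, y axis) and the same minus the median of all genes (right) at each time (x axis), with 1 line per setting. On the left the spike-in line stands apart at 3 h and 24 h, at 0.60 and 1.05. On the right all lines are lowest at 6 h.

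The genes that make and control HIF did not share one pattern. Of 20 listed subunits and regulators, 10 lines sloped downward and 10 upward, and 0 passed limma's adjusted p, 3 falling and 0 rising before adjustment. HIF1A, the main oxygen-regulated subunit, was lower at each time on the main scale by its single probe. The differences were -0.50 ± 0.35, -0.67 ± 0.44, -0.81 ± 0.77, -0.42 ± 0.67 and -1.05 ± 0.68. Spike-in scaling raises every difference by 1.09 at 3 h and 1.26 at 24 h, which turns HIF1A positive at these times. EPAS1, its paralogue HIF-2 alpha, was between -0.18 and 0.33, and ARNT between -0.66 and 0.52 by its main probe. EGLN1, the main oxygen sensor, was between -0.04 and 0.73 by its main probe. The main probe of VHL was saturated on all 6 arrays, so its line, counted above, is not a reading of the gene. The other VHL probe was between -0.76 and 0.02. HIF1AN, an asparagine hydroxylase that blocks HIF's contact with coactivators, stood at 1.04 (1 h) and was not well above background at 6 h and 12 h, the control being at least 3.35-fold higher at 12 h. Second probes disagreed: that of EPAS1 was between -1.20 and 0.05, that of ARNT between -1.85 (6 h) and 0.63 (24 h), and that of EGLN1 between -0.34 (12 h) and 1.04 (24 h). Differences of second probes, here and in the lists below, were not filtered on background or saturation. Some may therefore rest on signal not well above background.

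The genes of this list with the largest difference at any time were CITED2, EP300, SIAH1 and ELOB, so they stand far from control by the way they were chosen. CITED2, a HIF target that competes with HIF for the coactivators CBP and p300, was at -1.01, -1.28, -1.56, -1.12 and -1.62 at 1, 3, 6, 12 and 24 h. EP300, which encodes p300, stood at -2.23 by its main probe and -1.71 by another at 12 h. At 6 h the main probe was not well above background, the control being at least 4.62-fold higher. The other probe, which was not filtered on background, stood at -2.88, a value not shown to be well above background. SIAH1, a ubiquitin ligase acting on the hydroxylases, stood at -2.07 (6 h) and -1.42 (12 h). ELOB, a subunit of the VHL ligase complex, was on the other side, at 1.60 at 6 h and 1.05 at 12 h.

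Other targets of HIF were set beside the 10 genes. Of 30 non-glycolytic targets on the array, 29 were tested for a trend and 0 passed limma's adjusted p, 4 falling and 0 rising before adjustment. At least 2-fold lower were 1 of 26 measured at 1 h, 5 of 25 at 3 h and 8 of 23 at 6 h. At 12 h and 24 h, 7 and 4 of 25 were. Of all genes 0.672%, 3.1%, 10%, 8.08% and 9.55% were, at the 5 times in order. At least 2-fold higher were 0, 1, 2, 1 and 3, against 2.24%, 3.04%, 23.2%, 12.6% and 7.03% of all genes. Their median lay 0.10 below that of all genes at 1 h, 1.00 below at 6 h and 0.39 below at 24 h. BHLHE40, a transcriptional repressor, was at -1.57, -1.95, -3.19, -1.65 and -0.21, and MXI1, an antagonist of MYC, at -0.42, -1.34, -2.67, -1.54 and -0.50. PNRC1, a nuclear receptor coregulator, was at -2.18 at 3 h.

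Glycolysis genes stood closer to all genes than the 10 genes did at 3, 6 and 12 h, but not at 1 h or 24 h. Of 20, 0 passed limma's adjusted p, 1 falling and 0 rising before adjustment. Saturated signals were kept in these fits, such as those of ENO1 on 3 arrays and SLC2A1 on 1. Their median relative to all genes was 0.15, -0.22, -0.16, -0.38 and -0.36 at the 5 times, although 11 to 17 were measured without saturation at each time. SLC2A3, a glucose transporter, stood at -1.47 (6 h) and -1.36 (12 h), with -2.62 and -2.57 by another probe. SLC2A1, the transporter most often used as a HIF marker, stood at 1.38 (6 h) and -0.41 (24 h). PFKL, a phosphofructokinase subunit, was at 1.23 at 1 h, and ENO1, an enolase, at 1.11 at 6 h.

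The ATF4 list was read because it shares regulation with DDIT4 and VEGFA. Of its 12 genes, 0 passed limma's adjusted p, 1 rising and 0 falling before adjustment. DDIT3, which encodes the stress factor CHOP, was at -0.18, -0.13, -0.11, 1.76 and 1.79, high at the same late times as DDIT4. The list did not share this rise. DDIT3 was the 1 gene at least 2-fold higher of 10 measured at 12 h and of 9 at 24 h, against 12.6% and 7.03% of all genes. The list median relative to all genes was -0.21 at 12 h and 0.11 at 24 h. A cause common to DDIT3 and DDIT4 was not tested. VLDLR, a lipoprotein receptor, stood at -1.26 (3 h), -1.61 (6 h), -1.03 (12 h) and 0.12 (24 h). SLC7A11, a cystine transporter, was at -2.72 at 6 h, and its other probes were between -3.71 and -3.13. CEBPB, a liver transcription factor, stood at -2.08 (3 h) and -2.09 (6 h), with -0.81 and -0.20 by another probe. At 12 h and 24 h the main CEBPB probe was at -0.74 and -0.29, and the other at 1.32 and 0.67.

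**Figure D5:**
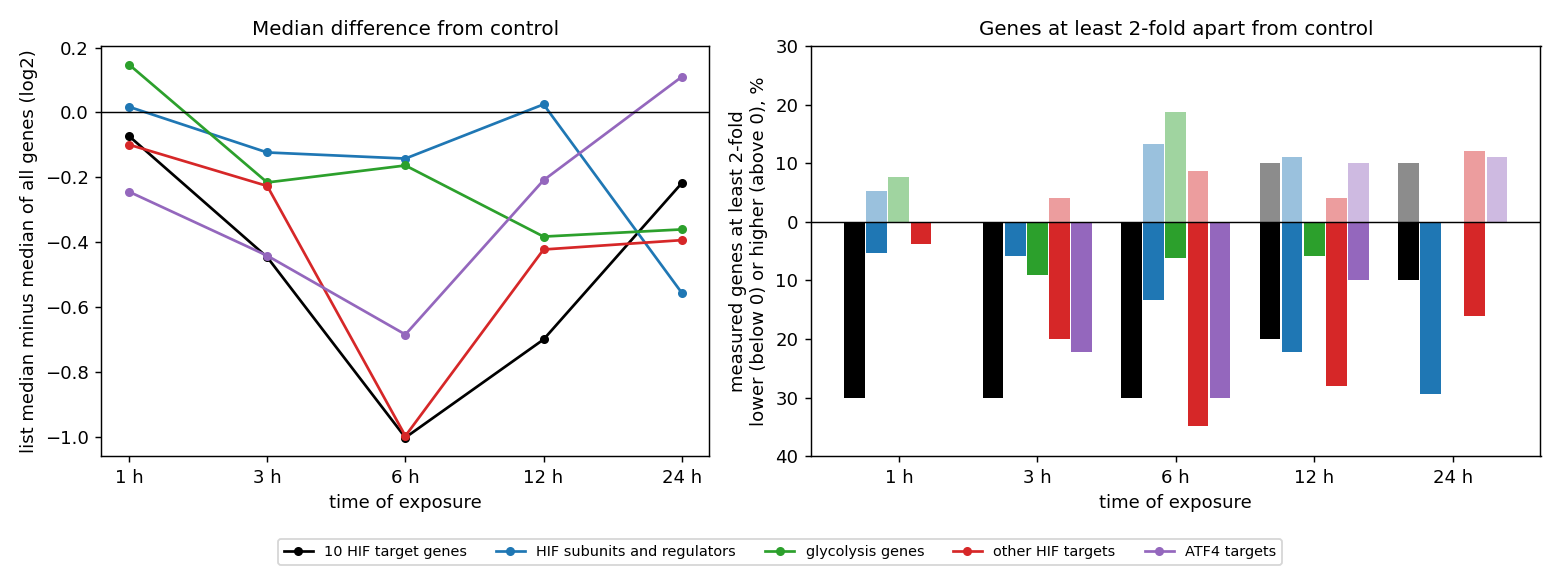
Left, median log2 difference from control of each gene list minus the median of all genes (y axis) by time of exposure (x axis). Right, the share of measured list genes at least 2-fold lower (dark bars, below 0) or higher (light bars, above 0). The 10 genes and the other HIF targets both lie 1.00 below all genes at 6 h, and the glycolysis genes and HIF regulators lie closer to 0 there.

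Among the genes whose pattern over the 6 arrays was most like the mean of the 10 were CEBPB and PNRC1 (Pearson r = 0.963 each), DEPP1 (0.958) and CCNG2 (0.956). They were ranked among 4047 genes measured and unsaturated on all arrays with an SD of at least 0.5, and r is a description over 6 arrays that share scaling, with no p. The mean difference of the 10 genes was -0.39, -0.79, -0.71, -0.45 and -0.15 at the 5 times. Likeness was read from main probes. The other probe of CEBPB, not filtered on background, did not follow this mean, at 1.32 at 12 h and 0.67 at 24 h. DEPP1, a regulator of autophagy, stood at -2.91 (3 h) and -2.36 (6 h), and CCNG2, an atypical cyclin of growth arrest, at -3.01 and -2.47.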

How the data were processed

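RNA of 6 HepG2 samples was purified with RNeasy and amplified with a linear amplification kit, per the labels' protocols. The labels name Cy5, whereas the scanner files hold green-channel columns alone. Per the file headers, each deposited scanner file gives a spot's intensity, background-corrected within an array and not scaled between arrays, with flags (scored 0 or 1) for signal well above background, saturation and outliers. The authors' deposited value table holds linear intensity and was used as an alternative. For the scanner software and the probes' genome build, no name is given in the sources used here.

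Control spots (1639 per array) were left out, spots of a probe averaged as log2 values, and 105 of 41000 probes flagged as outliers dropped. Each array's log2 75th percentile was subtracted. Probes were named by accession through RefSeq (23429 probes) or by symbol (2320), and 15251 stayed unnamed. A difference is given where both arrays were well above background and unsaturated. A bound sets the dim probe at the lowest signal well above background on its array. The trend was fitted with limma 3.58.1 in R 4.3.3 where 3 or more arrays were well above background, adjusted over all genes (Benjamini-Hochberg), and tested on simulated data. Saturated signals were not left out of the trend. Promoters came from RefSeq GRCh38.p14.

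The 10 genes and the context lists were chosen with earlier results of these data known. Named genes were the 10 members, up to 4 genes per list with the largest difference at any time, HIF1A, EPAS1, ARNT, VHL, EGLN1 and HIF1AN, and the 5 genes most like the members' mean. Some genes that this rule names are not reported here. Alternatives were quantile and cyclic loess normalization, the 75th percentile over probes well above background on all arrays, spike-in scaling, normexp background, the authors' values, the mean over a gene's probes, no filter, slope on hours, and each array left out. Subtracting the median of all genes, and leaving out the 6 h and 12 h arrays together, were added after seeing the data. The number of arrays limits the precision.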

Additional observations from a re-analysis of the deposited data

How the results depend on the processing

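No paired analysis was possible because each group held 1 array. The median of the 10 genes at 3 h was 0.60 and at 24 h 1.05 when scaled to spike-in spots, and EGLN3 at 3 h turned from -1.08 to 0.011. That scaling gave 2 genes at least 2-fold higher at 3 h, 1 lower at 12 h, and 0 lower and 6 higher at 24 h. Of all genes 54.3% were higher at 3 h and 65.8% at 24 h, and 4.73% were lower at 12 h and 1.01% at 24 h. At 6 h the number at least 2-fold lower, 3 in the values reported, was 5 with quantile normalization, 6 with cyclic loess, 5 with the 75th percentile over probes well above background, 7 with normexp background and 5 with the median of all genes subtracted. The shares of all genes lower at 6 h were 11.71%, 12.22%, 14.99%, 16.81% and 15.98% in that order, against 10% in the values reported. At 12 h the number lower was 4 with quantile normalization and 4 with cyclic loess, and both gave 0 genes at least 2-fold higher. Of all genes, 8.89% and 8.92% were lower and 8.35% and 8.45% higher in these settings. At 24 h 2 genes were at least 2-fold higher with quantile normalization, the 75th percentile over probes well above background, normexp background and the authors' values, against 1 reported. The shares of all genes there were 8.68%, 7.21%, 4.29% and 5.82% in order, against 7.03% in the values reported. The cause of these changes was not tested. Of 450 single-gene differences recomputed, 423 moved by less than the error and 44 changed sign, 18 of them with spike-in scaling. Of those 44, EGLN3 at 3 h alone was at least 2-fold from control in the values reported. No filter left every difference and slope of the 10 genes unchanged, as all main probes were well above background. The mean over probes left those of genes with a single probe unchanged. The counts of differences and slopes thus include values that could not move. Of 160 recomputed slopes of the 10 genes, 17 changed sign and 0 passed, with a lowest limma adjusted p of 0.135 (BNIP3, without the 6 h and 12 h arrays). In that fit of 4 arrays, chosen after seeing the data, 601 genes passed by limma, and with each single array left out 0 did. Dim signal limits the 6 h array most.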
